A study of Homo sapiens with 6 samples.

Results

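The centrosome and centriole genes were the rows of the expression table whose symbol is CEP followed by a number, with or without a closing L or P1, or is one of 20 further names such as PCNT, PCM1, PLK4 and CETN2. Of the 38900 rows, 56 met this rule, and 2 of the 20 further names, CPAP and NINEIN, had no row. These genes were measured under other symbols: CENPJ, a member, and NIN, read with the other centrosome genes below (log2 fold change 0.067). The rule used symbols alone and no measured value. RNA was measured by sequencing after polyA selection in 6 libraries of hTERT RPE1, a telomerase-immortalised, established line of human retinal pigment epithelium. Per the labels, the cells were brought to quiescence by 5 days at full confluency before 6 hours in fresh medium that held either 0.1% DMSO (3 libraries) or 100 nM combretastatin A4 (CA4, 3 libraries), a small molecule that binds tubulin and takes microtubules apart. Whether the CA4 medium also held DMSO is not stated in the labels. All libraries come from this 1 line, and nothing in the labels says that the numbered replicates were separate cultures, so p-values measure only the spread between these libraries, which may be technical. The question addressed is what the loss of microtubules does to transcripts in cultures labelled quiescent.

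The centrosome is the main microtubule organising centre of an animal cell. It holds a pair of centrioles, cylinders of stable microtubules, inside a protein cloud, the pericentriolar material, that carries the gamma tubulin rings from which new microtubules grow. In a quiescent cell the older centriole docks at the membrane by its appendages and becomes the base of a primary cilium, while new centrioles are built beside the old ones only once a cell has entered the cycle.

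Values are the authors' normalized counts, in which each gene's reads are divided by a factor of its library so that 1 read is close to 1 normalized count. The libraries held 19524936 to 22538004 recovered reads, of which the 56 members took between 0.105% and 0.137%. Testing was limited to the 13928 genes that averaged 10 or more, and 53 of the 56 members were among them. Of 10 markers of pigment epithelium 7 were tested. MITF and OTX2 averaged 671 and 389 normalized counts, RPE65, an enzyme of the mature tissue, averaged 21.8, and RLBP1, TYR and TYRP1 lay below the filter. OTX2 was the 1 of these 7 past the threshold, and it fell, from 533 to 244 normalized counts (limma adjusted p = 0.0158). MITF went from 885 to 457 and did not pass. RDH5, BEST1, PMEL and SERPINF1 averaged 158, 74.9, 17.1 and 15.7. The epithelial markers KRT8 and KRT18 averaged 15046.5 and 11025, and CDH1 and EPCAM lay below the filter. The mesenchymal markers VIM and CDH2 averaged 107873 and 14036.

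At 6 hours 1 of the 53 tested centrosome and centriole genes reached an adjusted p of 0.05 or less by limma. That gene was CDK5RAP2, which fell, and 0 members rose. Among all tested genes 4.94% passed, 1.97% downward and 2.97% upward. On the recovered reads edgeR, which called 4.62% of all tested genes, also called CDK5RAP2 alone, and DESeq2, which called 11.6% of all tested genes, called 5 members, with CEP19, CEP295 and CEP97 lower and ODF2 higher beside CDK5RAP2. By unadjusted limma p under 0.05 there were 10 members, 8 lower and 2 higher, where 23% of all tested genes met that mark and 11% met it downward. In 12 members, 10 lower and 2 higher, the 3 CA4 libraries did not overlap the 3 DMSO libraries, where 27.7% of all tested genes did not, 13.4% downward and 14.3% upward.

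Most members nonetheless had estimates on the same side. The log2 fold change was below 0 in 42 of 53 members and in 51.1% of all tested genes, and its median was -0.15 over the members and -0.0082 over all tested genes. After scaling of all libraries to 1 common total, 5.76% of all tested genes and 2 members, CDK5RAP2 and CEP19, passed, both lower. The median of all tested genes then moved to -0.11 and that of the members to -0.25, with 45 members below 0. The 95% interval of the fold change lay within 2-fold in either direction in 39 of the 53 members (73.6%, against 71.7% of all tested genes). It was widest in PLK4, CEP152 and CEP72, and in each of these 3 it contained a 2-fold decrease.

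**Figure D1:**
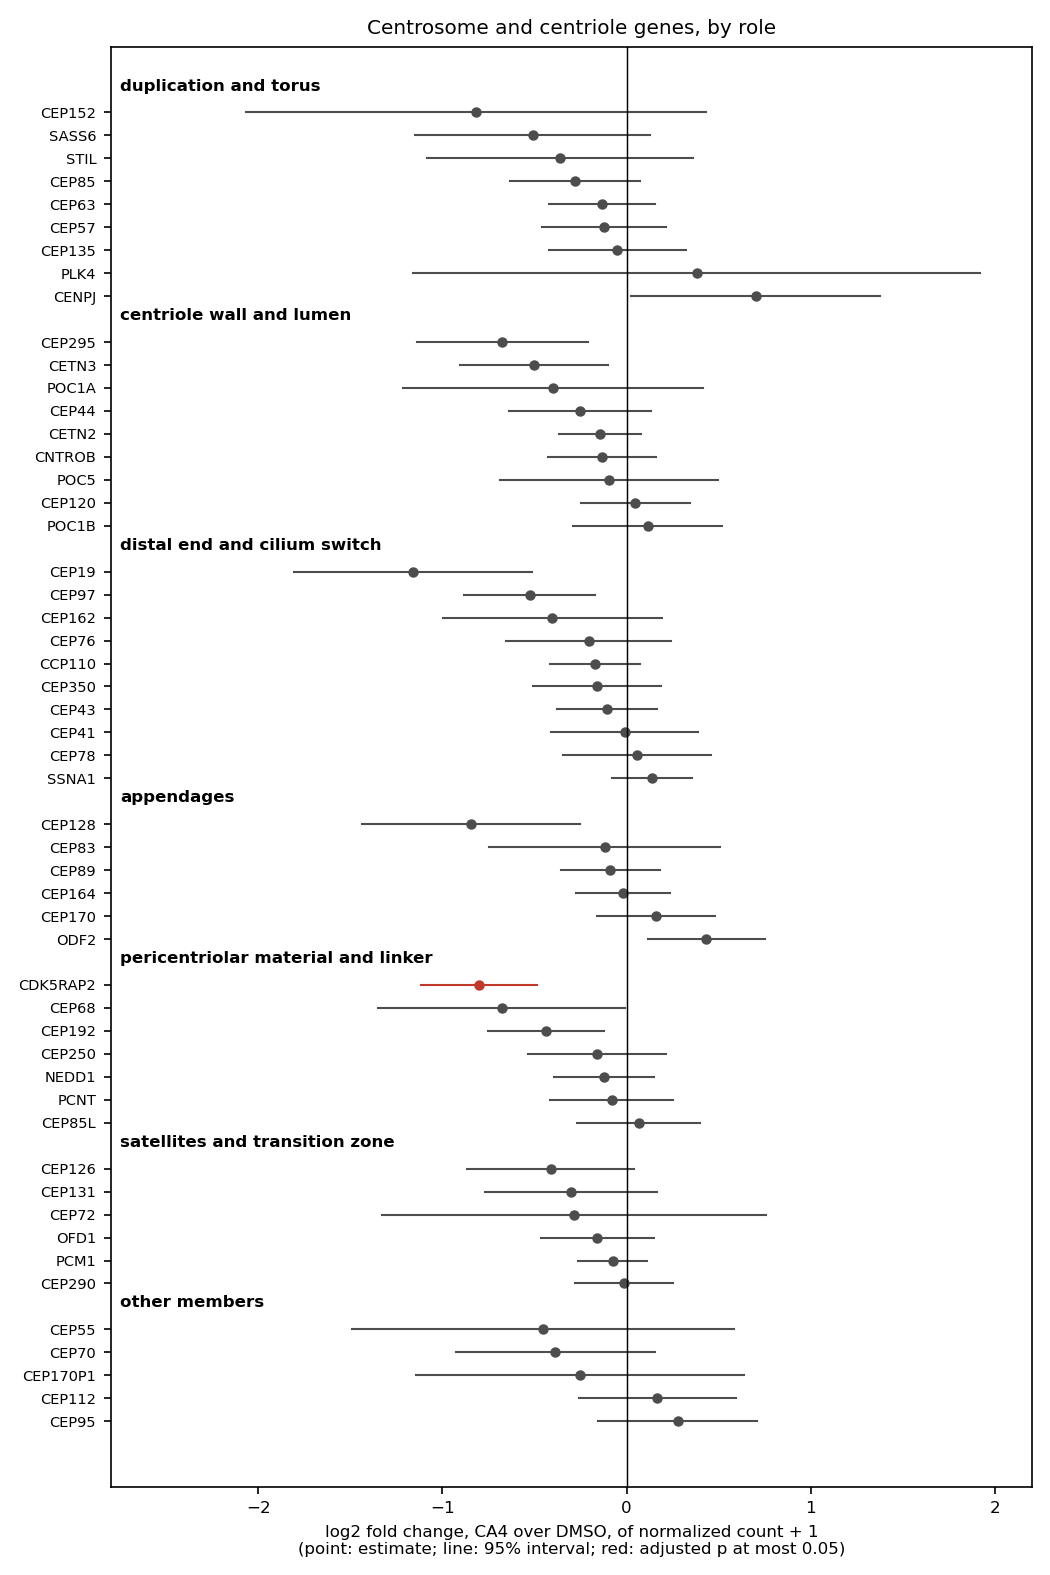
Log2 fold change of normalized count + 1, CA4 over DMSO (horizontal axis), of 52 of the 53 tested members grouped by role, with points for limma estimates and lines for 95% intervals. The red point is CDK5RAP2 at -0.80, the 1 member past the threshold, and 41 of the 52 points lie left of 0.

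The pericentriolar material and the linker between centrosomes held the 1 called member. CDK5RAP2 (ENSG00000136861, chromosome 9, 120388869 to 120580170 on the minus strand, GRCh38) encodes a scaffold of the pericentriolar material that binds gamma tubulin rings and promotes their nucleation of microtubules. It had 1284, 1296 and 1082 normalized counts in the DMSO libraries, in the order of their replicate numbers, and 822, 671 and 613 in the CA4 libraries. Every CA4 library lay below every DMSO library. The mean went from 1220.3 ± 120.3 to 702 ± 108 (SD, n = 3 each), to 0.573 times the DMSO level on the fitted scale (log2 fold change -0.80, SE 0.14, limma adjusted p = 0.0217). CDK5RAP2 was no longer called after leaving out DMSO replicate 2 (0.0921), DMSO replicate 3 (0.0666), CA4 replicate 2 (0.0567) or CA4 replicate 3 (0.0800, limma adjusted p in each), with log2 fold changes between -0.92 and -0.71 over all 6 such fits. The call also went without the mean trend in the variance (0.0688). In GENCODE 29 its exons overlap no other gene and none of its 50-base words occurs in another gene.

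CEP192, which recruits both the nucleation machinery and the kinase PLK4 to the centriole, had 512, 481 and 389 normalized counts with DMSO and 341, 353 and 319.9 with CA4. The groups did not overlap, but the difference missed the threshold (log2 fold change -0.44, SE 0.14, limma adjusted p = 0.108). CEP68, a protein of the linker that holds both centrosomes of a cell together, had 209.6, 362 and 308 normalized counts with DMSO and 122, 223 and 208 with CA4. Its groups overlapped, with DMSO replicate 1 below CA4 replicate 2 (log2 fold change -0.68, SE 0.29, limma adjusted p = 0.214). PCNT encodes pericentrin, the large scaffold that anchors the material to the centriole, and had 861, 856 and 967 normalized counts with DMSO and 1008, 854 and 700.0 with CA4. The CA4 libraries of PCNT lay on both sides of the DMSO range, and the 95% interval of its log2 fold change was -0.41 to 0.25. NEDD1, the adaptor that tethers gamma tubulin rings to the centrosome, had 874, 705 and 733 normalized counts with DMSO and 714, 748 and 652 with CA4, with overlap and an interval of -0.40 to 0.15. The linker protein CEP250 and CEP85L had log2 fold changes of -0.16 and 0.06. Estimates thus lay below 0 in 6 of the 7 genes of this group, in 79.2% of the members and in 51.1% of all tested genes.

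**Figure D2:**
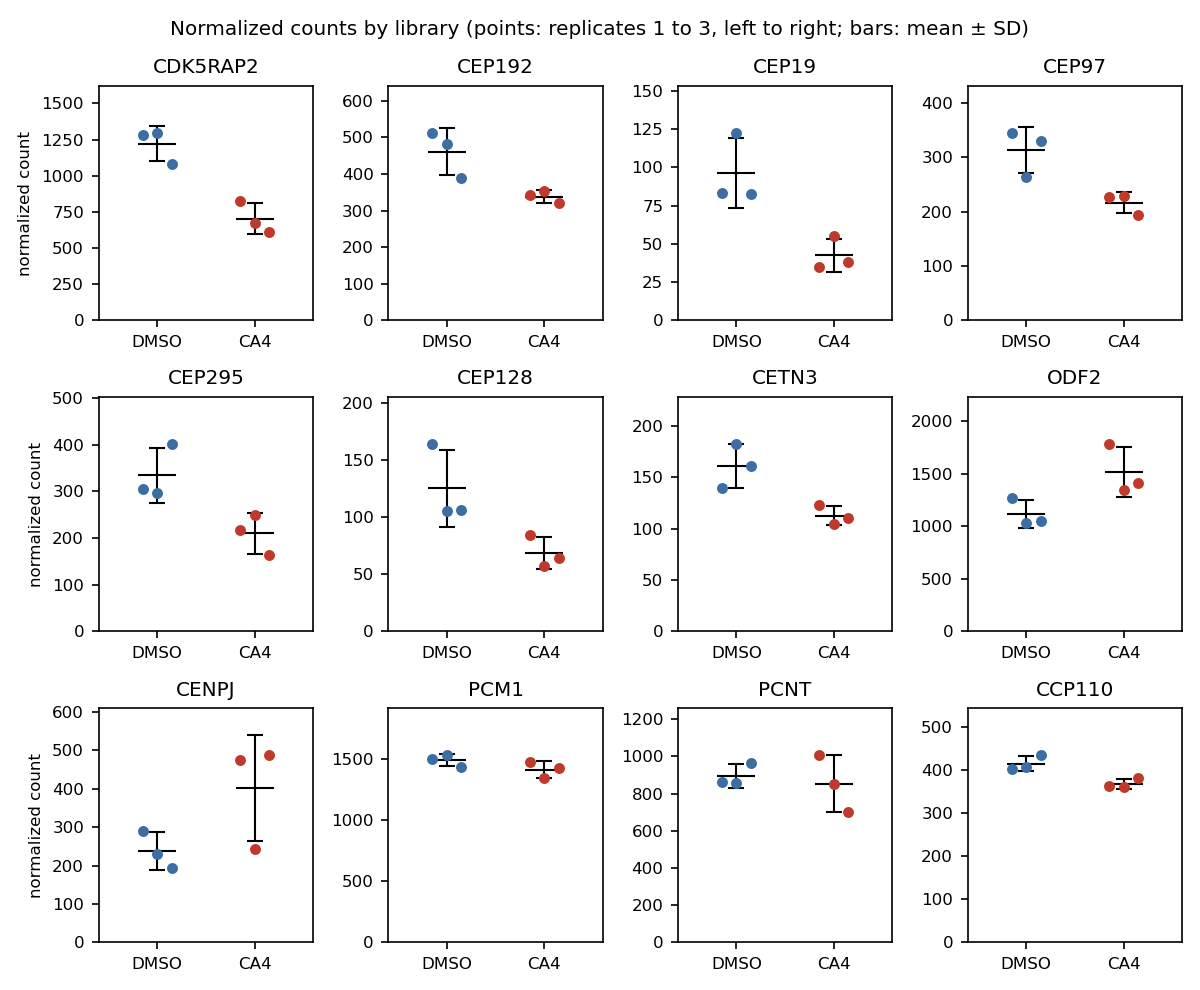
Normalized counts (vertical axes, from 0) of 12 members in the 3 DMSO and 3 CA4 libraries, with a point for each library and the mean and SD of each group. CDK5RAP2 shows separate groups around 1220.3 and 702, CENPJ has 1 CA4 library at 242 beside 475 and 488, and PCM1 lies between 1337 and 1529.5 in all 6.

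Among the 9 genes of centriole duplication 0 passed in limma, edgeR or DESeq2, where 4.94%, 4.62% and 11.6% of all tested genes passed. In 1 of the 9 the unadjusted limma p was under 0.05, as in 23% of all tested genes. PLK4 (chromosome 4, 127880861 to 127899195 on the plus strand) encodes the kinase that starts duplication. It had 273, 92.6 and 102 normalized counts with DMSO and 473, 146 and 82.5 with CA4, with replicate 1 far above the others in both groups. The spread within groups exceeded the difference between them (log2 fold change 0.38, SE 0.66, limma adjusted p = 0.782, 95% interval -1.16 to 1.92), and without CA4 replicate 1 the log2 fold change of PLK4 was -0.32. STIL and SASS6 encode proteins that PLK4 brings together to build the cartwheel, the template of a new centriole. STIL had 330.3, 198 and 209.9 normalized counts with DMSO and 285, 164 and 138 with CA4, and SASS6 had 106, 62.6 and 69.3 normalized counts with DMSO and 63.8, 53.9 and 45.7 with CA4. In both genes the groups overlapped and replicate 1 was the highest library of each group, with log2 fold changes of -0.36 (SE 0.31) and -0.51 (SE 0.27). In GENCODE 29 7.35% of the exon bases of SASS6 also belong to AC093019.2, so part of its reads could be assigned to either.

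CENPJ (chromosome 13, 24882284 to 24922889 on the minus strand), also called CPAP, controls the length of the growing centriole by acting on tubulin at its wall. It had the highest log2 fold change of the members. The DMSO libraries held 291, 231 and 194 normalized counts and the CA4 libraries 475, 242 and 488. CA4 replicates 1 and 3 lay above all DMSO libraries and CA4 replicate 2 lay within their range (log2 fold change 0.70, SE 0.29, limma adjusted p = 0.204). Without CA4 replicate 2 the log2 fold change of CENPJ was 1.03 with a limma adjusted p of 0.0483. That was the 1 call of CENPJ in the 6 fits that left out a library. Over these fits its log2 fold change ran from 0.53 to 1.03 and its limma adjusted p up to 0.439. CEP152, which recruits PLK4 together with CEP192, had 127, 255 and 79.8 normalized counts with DMSO and 119, 103 and 37.9 with CA4. Its libraries were scattered in both groups, and the interval of its log2 fold change was -2.07 to 0.43. CEP85, which binds STIL, had 571, 397 and 494 normalized counts with DMSO and 381, 425 and 386 with CA4, with overlap (log2 fold change -0.28, SE 0.15, limma adjusted p = 0.320). CEP57, the member of this group with the highest mean, had 461, 639 and 494 normalized counts with DMSO and 450.4, 513 and 488 with CA4, a log2 fold change of -0.12. CEP63, a partner of CEP152, and CEP135, a cartwheel protein, had log2 fold changes of -0.13 and -0.05.

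In the wall and lumen of the centriole 0 of 9 genes passed in limma or edgeR, where 4.94% and 4.62% of all tested genes did. Of the 9, 2 had an unadjusted limma p under 0.05, where 23% of all tested genes did. Estimates lay below 0 in 7 of the 9, in 51.1% of all tested genes and in 79.2% of the members. CEP295, needed to turn a new centriole into one that can act as a centrosome, had 304, 296 and 402 normalized counts with DMSO and 216, 249 and 164 with CA4. The groups did not overlap (log2 fold change -0.68, SE 0.20, limma adjusted p = 0.0962), and DESeq2 gave an adjusted p of 0.0345. Part of CEP295, 11.3% of its exon bases in GENCODE 29, lies opposite AP001273.1, and reads of both could not be told apart if the counting ignored strand. The centrins are small calcium-binding proteins of the lumen. CETN3 had 139, 182 and 160.5 normalized counts with DMSO and 123, 104 and 110.3 with CA4, without overlap (log2 fold change -0.50, SE 0.17, limma adjusted p = 0.137). CETN2 had 766, 828 and 797 normalized counts with DMSO and 677, 778 and 710.0 with CA4, with CA4 replicate 2 inside the DMSO range (log2 fold change -0.15, SE 0.10, limma adjusted p = 0.418). The difference between the changes of the centrins was not tested. POC5, another protein of the lumen, had 186, 128 and 115 normalized counts with DMSO and 101, 140.3 and 159 with CA4, and CEP44, which helps convert centrioles into centrosomes, had 211, 272 and 257 normalized counts with DMSO and 239.7, 194 and 186 with CA4. Both overlapped, with intervals of -0.69 to 0.50 for POC5 and -0.64 to 0.13 for CEP44. CNTROB, a centrobin of the daughter centriole and the gene of this group with the highest mean, had 906, 868 and 689 normalized counts with DMSO and 767, 702 and 761 with CA4 and a log2 fold change of -0.13. POC1A, POC1B and CEP120 had log2 fold changes of -0.40, 0.11 and 0.05.

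At the distal end of the centriole 0 of 11 genes passed in limma or edgeR, where 4.94% and 4.62% of all tested genes passed. Of the 11, 2, CEP19 and CEP97, had an unadjusted limma p under 0.05 and passed in DESeq2. Of all tested genes 23% met the first mark and 11.6% the second. CCP110 and CEP97 form a cap that keeps a centriole from growing a cilium and leaves the older centriole when a cilium forms. CEP97 had 345, 265 and 329.5 normalized counts with DMSO and 226, 229 and 194 with CA4. The groups did not overlap (log2 fold change -0.53, SE 0.15, limma adjusted p = 0.0923). CCP110, its partner, had 403, 408 and 436 normalized counts with DMSO and 363, 361 and 382 with CA4. These groups were tight and did not overlap either, but the log2 fold change was -0.17 (SE 0.10, limma adjusted p = 0.383).

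CEP19 (chromosome 3, 196706277 to 196712293 on the minus strand), a ciliary protein that works with CEP350 and CEP43 at the centriole, had the lowest log2 fold change of the members. It had 83.1, 122 and 82.6 normalized counts with DMSO and 34.8, 55.0 and 37.9 with CA4, so that its highest CA4 library lay below its lowest DMSO library. The mean went from 96.0 ± 22.9 to 42.6 ± 10.9 (SD, n = 3 each), and the difference narrowly missed the threshold (log2 fold change -1.16, SE 0.28, limma adjusted p = 0.0572). Under the common total its limma adjusted p was 0.0454, and DESeq2 gave 0.0129. Its partners CEP350 and CEP43 had log2 fold changes of -0.16 and -0.11. CEP162, CEP76, CEP41, CEP78 and SSNA1 had log2 fold changes between -0.40 and 0.14. SSNA1, at the upper end of that range, had 700.2, 678 and 651 normalized counts with DMSO and 787, 734 and 713 with CA4, without overlap (limma adjusted p = 0.423), and is named after its values were seen.

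The appendages, by which the older centriole anchors microtubules and docks at the membrane, held genes on both sides of 0. In limma and edgeR 0 of 6 passed, where 4.94% and 4.62% of all tested genes did. An unadjusted limma p under 0.05 was found in 2 of the 6, 1 lower and 1 higher, and in 23% of all tested genes. ODF2 (chromosome 9, 128455186 to 128501292 on the plus strand), needed to build the appendages, had 1272, 1035 and 1049 normalized counts with DMSO and 1782, 1349 and 1409.9 with CA4. All CA4 libraries lay above all DMSO libraries (log2 fold change 0.43, SE 0.14, limma adjusted p = 0.114), and DESeq2 gave an adjusted p of 0.0467. CEP128, of the subdistal appendages, had 164, 106 and 106 normalized counts with DMSO and 84.1, 57.2 and 64.6 with CA4. All its CA4 libraries lay below all its DMSO libraries (log2 fold change -0.85, SE 0.25, limma adjusted p = 0.100). CEP170, also of the subdistal appendages and the member with the most reads, had 3908, 2940.3 and 3649 normalized counts with DMSO and 4529.9, 3626 and 3569 with CA4, with overlap (log2 fold change 0.16, SE 0.14, limma adjusted p = 0.533). In GENCODE 29 26.8% of the 50-base words of CEP170 occur in its pseudogene CEP170P1, and 67.5% of those of CEP170P1 in CEP170, so reads could be exchanged between them. CEP83, CEP89 and CEP164, of the distal appendages, had log2 fold changes between -0.12 and -0.02.

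All 6 tested genes of the centriolar satellites, granules that carry proteins to the centrosome, and of the ciliary transition zone had estimates below 0 (median -0.22), as did 79.2% of the members and 51.1% of all tested genes. Of these 6, 0 passed in limma, edgeR or DESeq2, where 4.94%, 4.62% and 11.6% of all tested genes did. An unadjusted limma p under 0.05 was found in 0 of the 6 and in 23% of all tested genes. PCM1, the scaffold of the satellites, had 1495, 1529.5 and 1432 normalized counts with DMSO and 1472, 1337 and 1419 with CA4. Its libraries differed little within or between groups, and the interval of its log2 fold change was -0.27 to 0.11. CEP126 had 123, 165 and 157 normalized counts with DMSO and 93.7, 121 and 118 with CA4, without overlap (log2 fold change -0.41, SE 0.19, limma adjusted p = 0.261). CEP131 had 323, 472 and 339.9 normalized counts with DMSO and 250.3, 298 and 369 with CA4 and OFD1, a protein of satellites and of the distal centriole, 402, 449.7 and 439.7 normalized counts with DMSO and 394, 434 and 333 with CA4. Both overlapped, with log2 fold changes of -0.30 and -0.16. CEP72, a satellite protein, and CEP290, of the transition zone, had log2 fold changes of -0.29 and -0.02.

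Of the 5 tested members outside these groups 0 passed in limma, edgeR or DESeq2 or had an unadjusted limma p under 0.05. Of all tested genes 4.94%, 4.62% and 11.6% passed and 23% met the unadjusted mark. CEP70 had 212, 230.0 and 144 normalized counts with DMSO and 172, 118 and 154 with CA4, and CEP95 had 229, 327 and 331 normalized counts with DMSO and 303, 367 and 398 with CA4. Both overlapped, with log2 fold changes of -0.39 and 0.28. CEP112 and CEP170P1 had 0.17 and -0.25, and CEP55 is described with the cell cycle genes. CEP170P1 was the member just above the filter, with a mean of 20.2 normalized counts. Below the filter lay CEP20, listed at 0 in 5 libraries and with 5 reads in CA4 replicate 3, and the pseudogenes CEP164P1 and CEP19P1, listed at 0 in all 6.

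Several members varied more between replicates than between treatments. CEP55 (chromosome 10, 93496632 to 93529092 on the plus strand), which acts in the final separation of dividing cells, had 840.2, 452 and 370.3 normalized counts with DMSO and 655, 403 and 207 with CA4. Replicate 1 was the highest and replicate 3 the lowest library of each group, and the groups overlapped (log2 fold change -0.45, SE 0.44, limma adjusted p = 0.593). The mean of log2(normalized count + 1) over 17 genes of G2 and M phase had the same order within groups, at 9.87, 8.91 and 8.67 in DMSO and 9.48, 8.79 and 7.94 in CA4, and over 12 S phase genes it was 9.58, 8.89 and 8.68 in DMSO and 8.93, 8.70 and 8.09 in CA4. In CA4 against DMSO, 17 of 17 and 11 of 12 genes of these lists had estimates below 0, where 51.1% of all tested genes did, with medians of -0.39 and -0.50. In limma 0 of either list passed, where 4.94% of all tested genes did. An unadjusted limma p under 0.05 was found in 0 and 5, where 23% of all tested genes met that mark and 11% met it downward. In bulk RNA, fewer cycling cells and less RNA per cycling cell cannot be told apart, and the part of these genes in the differences of the members was not tested.

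The standard deviation of log2 values within groups was 1.09 in PLK4, 0.86 in CEP152 and 0.73 in CEP55, at the 97.4, 95.7 and 93.5 percentiles of all tested genes. CEP72, POC1A and STIL followed at 0.62, 0.53 and 0.48. The median was 0.20 over the members and 0.20 over all tested genes, so the members at large varied like other genes. At the other end CEP43, CCP110 and PCM1 had 0.05, 0.05 and 0.06. On the log2 scale PLK4 in replicate 1 exceeded the mean of replicates 2 and 3 by 1.49 in DMSO and 2.10 in CA4, and CEP55 by 1.04 and 1.18. The medians of this difference over the G2 and M genes were 1.08 and 1.13. Replicate 1 was the highest library of both groups in 14 of 53 members (26.4%), in 19.8% of all tested genes and in 17 of the 17 G2 and M genes. Among the 14 were PLK4, STIL, SASS6, POC1A and CEP55. By role they were 5 of 6 appendage genes, 4 of 9 duplication genes and 2 of 9 of the wall and lumen. The distal end held 1 of 11, the satellites and transition zone 1 of 6, the pericentriolar material and linker 0 of 7, and the remaining members 1 of 5. CEP152 was highest in DMSO replicate 2 and did not have that order.

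**Figure D3:**
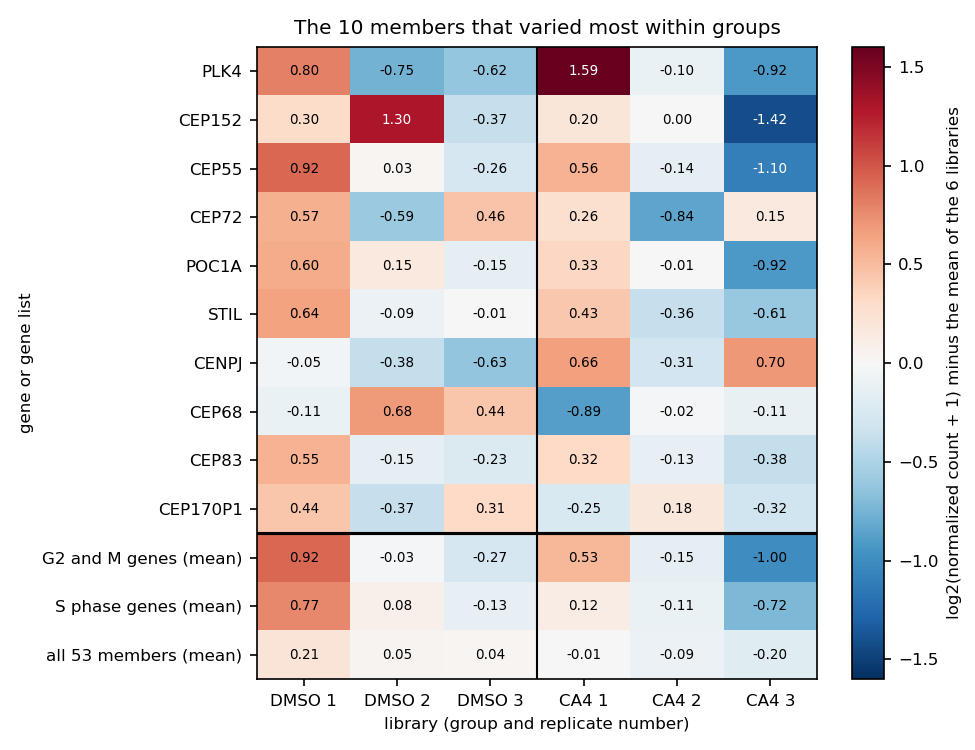
Difference of log2(normalized count + 1) from the mean of the 6 libraries (colour and printed number) for the 10 members with the widest spread within groups, above the same for the means of the G2 and M genes, the S phase genes and all 53 tested members. CEP55 and the G2 and M genes are highest in replicate 1 and lowest in replicate 3 of each group, and PLK4 stands highest in replicate 1 of each group.

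The promoters of CDK5RAP2, the called member, and of PLK4 and CEP55, which like the G2 and M genes were highest in replicate 1 of each group, are shown as examples. They were picked by name from the genes described above. Each is 250 bases before and 50 bases after the gene's start, 5′ to 3′ on the gene's strand (RefSeq, GRCh38.p14). Capitals mark the letters TTTGAA or TTCGAA on either strand, the core of the cell cycle homology region found in many promoters of G2 and M genes.
CDK5RAP2, chr9:120580118-120580417, minus strand: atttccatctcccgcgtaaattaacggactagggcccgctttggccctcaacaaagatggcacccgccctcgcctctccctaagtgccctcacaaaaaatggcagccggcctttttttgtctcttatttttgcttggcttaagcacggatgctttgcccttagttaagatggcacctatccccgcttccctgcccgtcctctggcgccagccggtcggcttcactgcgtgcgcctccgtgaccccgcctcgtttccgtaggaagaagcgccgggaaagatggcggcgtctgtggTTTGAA
PLK4, chr4:127880643-127880942, plus strand: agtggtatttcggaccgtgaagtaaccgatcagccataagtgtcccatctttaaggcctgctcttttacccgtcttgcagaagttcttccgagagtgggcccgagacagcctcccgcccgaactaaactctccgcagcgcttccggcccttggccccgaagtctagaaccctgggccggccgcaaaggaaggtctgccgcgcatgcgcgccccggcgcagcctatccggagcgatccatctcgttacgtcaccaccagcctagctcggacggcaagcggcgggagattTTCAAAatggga
CEP55, chr10:93496362-93496661, plus strand: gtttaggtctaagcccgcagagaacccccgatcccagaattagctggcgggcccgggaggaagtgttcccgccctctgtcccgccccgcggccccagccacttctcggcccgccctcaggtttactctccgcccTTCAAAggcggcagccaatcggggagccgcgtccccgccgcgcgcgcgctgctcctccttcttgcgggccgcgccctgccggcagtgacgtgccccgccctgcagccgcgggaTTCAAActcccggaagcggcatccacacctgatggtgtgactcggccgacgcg
CDK5RAP2 and PLK4 held 1 match each, in the bases after the start, and CEP55 held 2, the first before the start and the second across it. RefSeq gave a promoter for 45 of the 53 tested members. Of these, 15 (33.3%) held a match, and of all 27305 promoters of the same length 16.6% did. Of the 13 members with a promoter whose highest library was replicate 1 in both groups, 4 held a match, namely PLK4, CEP55, CEP72 and CEP135, and the others, STIL, SASS6 and POC1A among them, did not. A match describes the letters and does not show a site in use.

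Levels of different members were compared only per kilobase of exon in GENCODE 29, a scale that understates genes with long exons these cells do not use. SSNA1, a small protein that binds microtubules, stood highest in DMSO at 572 ± 20.6 normalized counts per kilobase, followed by CETN2 at 413 ± 16.2 and CEP170 at 319.9 ± 45.8 (SD, n = 3 each). ODF2, NEDD1 and CEP55 came next, at 175 ± 20.8, 173 ± 20.3 and 169 ± 76.7 per kilobase, and did not differ from each other beyond their spread. PCM1 stood at 103 ± 3.42 and PCNT at 76.7 ± 5.36 per kilobase. The duplication genes PLK4 and SASS6 were lower, at 34.8 ± 22.7 and 20.0 ± 5.91 per kilobase, and the order ended with CEP128 at 13.3 ± 3.57, CEP72 at 10.6 ± 4.12 and the pseudogene CEP170P1 at 4.85 ± 1.40. CDK5RAP2 went from 121 ± 11.9 per kilobase in DMSO to 69.7 ± 10.7 in CA4, from above the level of PCM1 to below it.

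**Figure D4:**
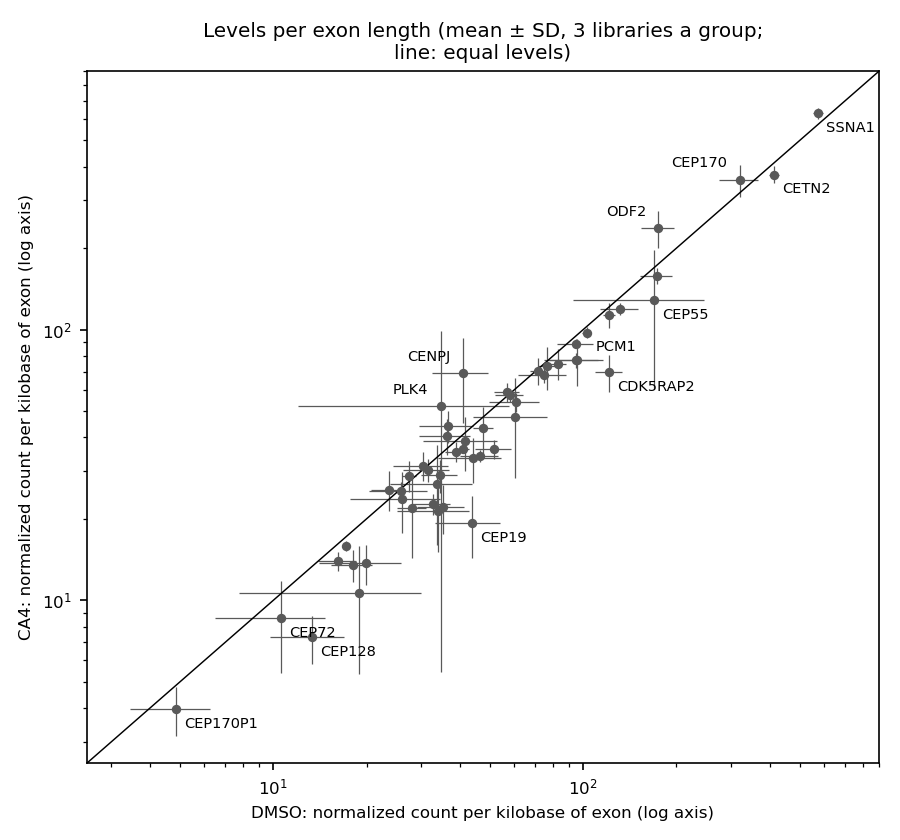
Mean normalized count per kilobase of exon in DMSO (horizontal, log axis) and in CA4 (vertical, log axis) of the 53 tested members, with bars of 1 SD over 3 libraries and a line of equal levels. CDK5RAP2 lies below the line at 121 and 69.7, and levels run from 4.85 in CEP170P1 to 572 in SSNA1 in DMSO.

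The rest of the centrosome was read from 48 further genes. Of 10 tested genes of the gamma tubulin ring complex 1 fell and 0 rose in limma, 2 had an unadjusted p under 0.05, where 4.94% of all tested genes passed and 23% met the unadjusted mark, and the median was 0.0038. The gene that fell was TUBG1 (chromosome 17, 42609676 to 42615234 on the plus strand), which encodes the gamma tubulin of the rings that CDK5RAP2 binds. It had 1106, 890.0 and 945 normalized counts with DMSO and 583, 541 and 508 with CA4. The groups did not overlap (log2 fold change -0.84, SE 0.12, limma adjusted p = 0.0135), and TUBG1 was no longer called after leaving out DMSO replicate 3 (0.0629) or CA4 replicate 3 (0.0536), or without the mean trend in the variance (0.0561, limma adjusted p in each). TUBG2, its close copy, had 373, 369 and 424 normalized counts with DMSO and 247, 295 and 294 with CA4 (log2 fold change -0.48, SE 0.13, limma adjusted p = 0.0801), and was named after its values were seen. In GENCODE 29 18.2% of the 50-base words of TUBG1 occur in TUBG2, so the split of reads between them is uncertain. TUBGCP2 to TUBGCP6, the larger ring subunits, had log2 fold changes between -0.15 and 0.20.

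Of 38 other centrosome and centriole genes 1 rose and 0 fell in limma, where 4.94% of all tested genes passed. In 12 of the 38, 11 of them lower, the unadjusted limma p was under 0.05, where 23% of all tested genes met that mark and 11% met it downward. Estimates lay below 0 in 30 of the 38 (median -0.36) and in 51.1% of all tested genes (median -0.0082). CEP170B (chromosome 14, 104865280 to 104896770 on the plus strand), a relative of CEP170, was the gene that rose. It had 1226, 1428 and 1416 normalized counts with DMSO and 1919, 1740.2 and 2013 with CA4. The groups did not overlap (log2 fold change 0.48, SE 0.10, limma adjusted p = 0.0404), but the call was lost in each of the 6 fits that left out a library, with limma adjusted p from 0.0527 to 0.134, and under a common total (0.0630) or 75th percentile (0.0511) or without the mean trend (0.0957). CNTLN, which joins the linker to the centriole, had 212, 253 and 223 normalized counts with DMSO and 147, 163 and 165 with CA4. Its groups did not overlap, and it missed the threshold (log2 fold change -0.53, SE 0.14, limma adjusted p = 0.0776). Over both lists DESeq2 called 8 of the 48 genes, 7 of them lower, where it called 11.6% of all tested genes, and edgeR called 2, where it called 4.62%.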

How the data were processed

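PolyA RNA of 6 libraries was measured, and each column was given its group and replicate from the sample's title. The submitters' processing notes name Trim Galore 0.6.6, FastQC 0.12.1, STAR 2.7.9a, Salmon 1.8.0, DESeq2 1.44.0 and GRCh38, without roles; annotation release and use of strand are not given in the sources used here. The deposited values are a signal, the authors' normalized counts. In every column 100% of values were whole multiples of 1 step within a tolerance of 0.01, which gave whole reads, possibly rounded estimates. A listed 0 allows up to 3 reads, by counting error only.

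Genes with a mean of at least 10 were fitted on log2(normalized count + 1), a scale that understates changes of low genes, with limma 3.58.1 in R 4.3.3 (treatment only, mean trend). Two-sided p-values were adjusted by Benjamini-Hochberg over 13928 genes. Of the IDs, 35803 took a symbol from the gene name table and 29 from GENCODE 29, which also gave positions, exon lengths and shared 50-base words (GRCh38). The members and lists were chosen with earlier results of these data known. Genes named with all their values are every member past the threshold, 15 core genes, in each role the 3 members with the smallest p and the 1 with the highest mean, and of the other centrosome genes those past the threshold or with the 3 smallest p. Other members are named to account for the rest, and 1 tested member, kept in all counts, is not reported here.

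Alternatives were other pseudocounts, filters, scalings and variance priors, a replicate block, leaving out each library, and edgeR 4.0.16 and DESeq2 1.42.0 on the recovered reads. On simulated data of 13928 genes with 200 changed 2-fold, limma recovered 51.5% with 6.36% of its calls false, the replicate block 47% with 11.3%, edgeR 50.5% with 7.34%, and DESeq2 64.5% with 24.6%. The simulated libraries were drawn independently, with no effect shared by replicate number. The simulation therefore cannot rate the block for libraries that share such an effect. Replicates differed by 17.9 to 35.6 times counting noise (chi-square per degree of freedom), so none was a copy.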

Additional observations from a re-analysis of the deposited data

How the results depend on the processing

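The fall of CDK5RAP2 kept its direction in all 17 alternatives, and the median of the members stayed below 0 in each. With DESeq2, 1613 genes passed (907 higher, 706 lower), 5 members (1 higher, 4 lower) and 8 other centrosome genes (7 lower). With no mean trend in the variance, 103 genes passed (51 higher, 52 lower), 0 members, with 0 lower, and 0 other centrosome genes, with 0 higher and 0 lower, where CDK5RAP2 had a limma adjusted p of 0.0688. Scaled to the same total, 523 genes were lower and 34.8% of calls were higher, against 60.0% as deposited; 2 members passed, both lower, their median was -0.25, and of the other centrosome genes 0 were higher and 3 lower. At the same 75th percentile 1 other centrosome gene passed and 0 were higher. Leaving out 1 library gave 81 to 994 genes (50 to 605 higher, 31 to 389 lower), 0 to 1 members (0 to 1 higher, 0 to 1 lower) with medians from -0.17 to -0.11 and 36 to 43 members below 0, and 0 to 1 other centrosome genes (0 higher, 0 to 1 lower). The cause of these shifts was not tested. Over the named genes, 559 values kept their side of the threshold and their direction, 17 lost a call and 14 gained one. The other 5 changed sign in a fit without 1 library, all in genes with no call: PLK4 to -0.32, POC5 to 0.094 and 0.11, PCNT to 0.055 and CEP57 to 0.018 on the log2 scale.

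Same-numbered libraries deviated together with correlations of 0.202, 0.159 and 0.0588, all positive. CA4 replicate 3 correlated slightly better with DMSO replicate 2 (0.0741) than with its own number. These values do not settle whether the numbers pair the libraries, and the labels do not say so. The limma results above are therefore from the unpaired fit, and the block is given as an alternative. With a replicate block 2397 genes passed (1260 higher, 1137 lower), which is 17.2% of all tested genes. Of the 53 tested members 6 passed (1 higher, ODF2, and 5 lower, CDK5RAP2, CEP128, CEP19, CEP192 and CEP68). Of the 48 other centrosome genes 7 passed (6 lower). With 3 libraries a group, 2-fold changes could be missed in the variable genes, and counts of CEP170P1 and CEP72 are low.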
